A study of Mus musculus with 4 samples.

Results

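The fatty acid desaturases and elongases described here were Fads1, Fads2 and Fads3 and Elovl1, Elovl2, Elovl3, Elovl5, Elovl6 and Elovl7, 9 genes of the 34614 protein-coding and lncRNA genes of the mouse annotation. Their members were CpGs in the mm10 gene body and 10 kb on either side that had at least 10 reads in every library, both strands summed. In all, 1207 of the 1600691 CpGs analysed across the nuclear genome met this rule. The CpGs were selected on their read depth, and the genes were chosen with earlier results of the same data known, so their differences are described beside those of all genes.

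Liver of C57BL6/N mice aged 6 weeks was profiled by reduced representation bisulfite sequencing (RRBS). RRBS cuts genomic DNA with restriction enzymes, here TaqI and MspI per the labels' protocols, so that the sequenced fragments are rich in CpGs, and bisulfite conversion then tells methylated from unmethylated cytosines. The WT group (2 libraries) was Pnpla7+/+ and the KO group (2 libraries) Pnpla7-/-, and Pnpla7 encodes a lysophospholipase; the design compares the liver methylome with and without the gene. The labels do not say how the Pnpla7 allele was made or whether each library is a different animal, and methylation levels do not check a genotype. The files held from 50413170 to 60535892 reads over cytosines, with median depths at analysed CpGs of 21 reads in WT replicate 1 and 25 in each of the other libraries. A level is the share of reads methylated, averaged over all cell types of the liver, so a change within cells and a change in the mix of cells cannot be told apart.

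Desaturases put double bonds into fatty acyl chains, and elongases catalyse the first and rate-limiting step of the cycle that lengthens them by one malonyl-CoA-derived unit at a time. In liver, FADS2 starts the conversion of linoleic and alpha-linolenic acid, ELOVL5 lengthens the product, and FADS1 then makes arachidonic and eicosapentaenoic acid. ELOVL2 extends eicosapentaenoic acid toward docosahexaenoic acid. ELOVL6 turns palmitate into stearate, ELOVL1 and ELOVL3 act mainly on saturated and monounsaturated chains, ELOVL7 also makes very long chains, and FADS3 desaturates sphingoid bases of ceramides. Methylation of the CpG-dense start of a gene is known to accompany silencing, while gene bodies of mammals are usually methylated.

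Sequences before the starts are shown because they differ in CpG number and in how many of their CpGs were read. Promoter sequences of RefSeq (build GRCm38.p6, the patch of mm10) were matched by symbol for 7 of the 9 genes, all but Fads1 and Elovl3. Of 4 genes whose RefSeq start is the annotated end of the gene, the 250 bases before the start are shown 5′ to 3′ on the gene's strand. Capitals mark the CpGs analysed, and all other bases are in lower case.
Fads2, chr19:10101504-10101753, minus strand: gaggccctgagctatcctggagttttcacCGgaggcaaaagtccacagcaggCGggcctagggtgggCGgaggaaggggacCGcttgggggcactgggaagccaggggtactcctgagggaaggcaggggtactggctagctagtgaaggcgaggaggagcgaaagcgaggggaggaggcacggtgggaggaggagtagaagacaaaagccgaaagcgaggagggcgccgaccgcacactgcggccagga
Elovl2, chr13:41220404-41220653, minus strand: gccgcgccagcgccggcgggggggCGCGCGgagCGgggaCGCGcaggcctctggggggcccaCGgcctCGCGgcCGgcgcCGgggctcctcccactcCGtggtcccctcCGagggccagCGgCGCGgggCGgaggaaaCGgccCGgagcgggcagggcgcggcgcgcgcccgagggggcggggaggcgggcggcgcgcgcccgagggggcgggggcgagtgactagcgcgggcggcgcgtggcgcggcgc
Elovl5, chr9:77917115-77917364, plus strand: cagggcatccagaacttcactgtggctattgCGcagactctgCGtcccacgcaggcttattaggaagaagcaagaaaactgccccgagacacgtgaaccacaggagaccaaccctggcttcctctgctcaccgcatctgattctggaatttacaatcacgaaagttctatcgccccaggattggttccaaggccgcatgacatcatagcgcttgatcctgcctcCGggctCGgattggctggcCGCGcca
Elovl6, chr3:129532136-129532385, plus strand: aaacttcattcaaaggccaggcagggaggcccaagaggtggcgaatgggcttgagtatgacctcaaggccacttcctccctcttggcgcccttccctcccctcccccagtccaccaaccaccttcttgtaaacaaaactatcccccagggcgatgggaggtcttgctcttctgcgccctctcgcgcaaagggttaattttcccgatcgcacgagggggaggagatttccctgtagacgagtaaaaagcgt
The 250 bases of Elovl2 held 49 CG and 4 CCGG, the MspI site, and 19 of the CpGs were analysed. Those of Fads2 and of Elovl5 held 14 CG and 1 CCGG each, with 4 and 6 CpGs analysed. Elovl6 held 11 CG and neither CCGG nor TCGA, the TaqI site, and none of its CpGs was analysed. Across 32851 such promoters of the reference the median was 6 CG, 47.1% held CCGG and 18.5% held TCGA; both sites read the same on either strand and do not overlap each other. In the Elovl5 sequence 0 of 179, 209, 163 and 166 reads were methylated in WT replicates 1 and 2 and KO replicates 1 and 2, which allows levels of up to 1.68%, 1.44%, 1.84% and 1.81% by counting error alone. These reads are summed over the 6 CpGs, so a read across several CpGs is counted more than once and the limits are too low. In the Elovl2 sequence, 0.417% of 480 and 2.55% of 666 reads were methylated in WT and 1.21% of 660 and 1.88% of 743 in KO, so that the genotypes overlapped.

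The CpGs analysed around the starts of 7 genes, and for Fads1 and Elovl3 around the gene end richer in CpGs, were nearly free of methylation in every library. For Elovl6 they began 332 bp inside the gene, so the start itself was not measured. The reference gave no start for Fads1 and Elovl3, and the end used for Elovl3 overlaps Pitx3, so it may not be the start. The 9 windows of 1 kb on either side of these points lay between 0.187% and 2.88%, on 347 to 3443 reads a library. Over the 19729 gene windows measured, 74.0% were below 20% and 61.1% below 5%. In Fads1 the window had 0.642% and 0.627% in WT and 0.567% and 1.10% in KO. The Fads3 window was the one that came nearest to a difference, with 2.88% and 2.83% in WT and 2.55% and 1.22% in KO (adjusted p = 0.701 by the quasi-binomial model described with the processing). Both KO libraries were below both WT libraries there, by less than 1 percentage point in KO replicate 1, as in 16.8% of all windows. The windows of Elovl3 and Elovl5 had the opposite order, with means 0.184 and 0.238 points higher in KO. The share of all windows with that order is not reported here. None of the 9 windows was called, 1 had an unadjusted p under 0.05 and limma on log2 ratios also called 0; over all genes 0.076% of windows were called. Differences of KO from WT ran from -0.971 to 0.452 percentage points, and adjusted p from 0.701 to 0.996.

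The unmethylated stretch that was read, whose ends depend on which CpGs were analysed, differed in length between the genes. The longest run of consecutive analysed CpGs below 20% in the mean of the 4 libraries spanned 1690 bp with 89 CpGs in Fads1 and 1676 bp with 72 CpGs in Fads2, both across the window centre. In Fads3 it spanned 557 bp with 59 CpGs. In Elovl5 it covered 8133 bp with 98 CpGs, from -6842 to 1290 bp relative to the start, and in Elovl2 7268 bp with 59 CpGs, from -398 to 6869 bp relative to the start. In these long runs the gaps between fragments were not read, and in Elovl2 57 of the 59 CpGs lay in the 1-kb tile at the start. Elovl6 had 74 CpGs over 1450 bp beginning 332 bp inside the gene, and Elovl7 57 CpGs over 1381 bp. The longest runs of Elovl1 and Elovl3 did not lie at the gene's own start: that of Elovl1 (857 bp, 61 CpGs) lay 8628 to 9484 bp downstream of its start. That of Elovl3 (1008 bp, 60 CpGs) lay beyond the gene's higher-coordinate end, inside Pitx3, a homeobox transcription factor gene. Mean levels in the run of Fads1 were 1.21% and 1.35% in WT and 2.02% and 2.16% in KO, both KO libraries higher by under 1 point. In Fads2 they were 0.598% and 0.999% in WT and 0.568% and 0.514% in KO. All 9 runs were below 4% in each library.

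**Figure D1:**
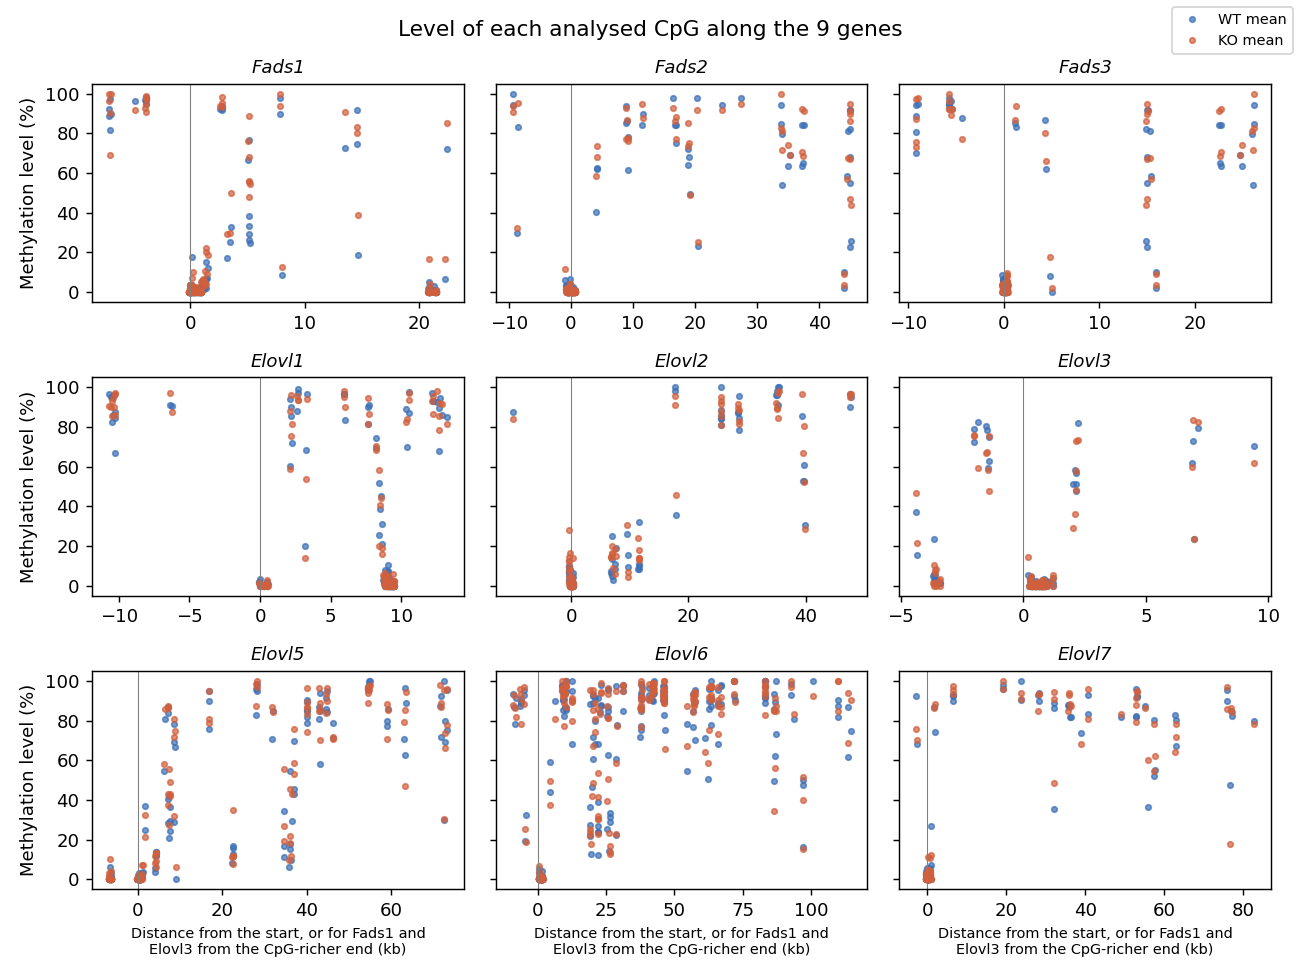
Methylation level (%) of each analysed CpG, as the mean of 2 WT (blue) or 2 KO (orange) libraries, against distance in kb from the RefSeq start along the gene's strand, or for Fads1 and Elovl3 from the CpG-richer gene end in the direction of higher coordinates (grey line at 0). CpGs nearest the line sit near 0% in every gene, though for Elovl6 the nearest lie 332 bp or more inside it. Most CpGs of Elovl6 away from its start are above 80%, and blue and orange part most at about 5 kb in Fads1.

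Away from the starts the genes differed in how much methylated DNA was read. Elovl6, the longest of the 9, had 143 of its 257 CpGs above 80% and 78 below 20%. Elovl3 had 1 of 92 above 80% and 72 below 20%, and Fads1 20 of 149 above 80% and 116 below 20%. Fads2 and Fads3 lie side by side, and their regions share 21 analysed CpGs, so their values are not independent. The Fads1 region also holds the ends of Fen1 and Tmem258, with 2 tiles of 1 kb near Fen1 below 2% in every library. CpG density went with level: the 547 CpGs with 20 or more neighbours within 250 bp had a mean of 1.01% in WT and 1.10% in KO, against 3.41% and 3.26% over all gene regions. The 317 CpGs with 1 to 4 neighbours stood at 69.5% ± 1.54 (WT) and 71.0% ± 0.0608 (KO; SD, n = 2), against 76.6% and 77.4% over all gene regions. The depth rule left out CpGs of all levels: in Fads1 9 CpGs had a lowest depth of 8 or 9 reads, with a mean level of 1.35%, and 3 had 10 or 11 reads, with 35.0%. In Elovl6 the 28 CpGs just outside the rule averaged 68.0% and the 23 just inside 70.6%.

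The mean level over a gene's CpGs was a little higher in KO for most of the genes, and no gene region passed the test. For Fads1 it was 16.95% and 16.97% in WT and 19.08% and 19.40% in KO, a difference of 2.28 points (WT 17.0% ± 0.0123, KO 19.2% ± 0.222, SD, n = 2). Both KO libraries were above both WT libraries, and the gap exceeded the spread within either genotype. For Fads2 the libraries had 28.05% and 28.17% in WT and 29.72% and 29.61% in KO, a difference of 1.56 points. For Elovl5 they had 28.7% and 29.9% in WT and 30.5% and 30.8% in KO, a difference of 1.37 points, and for Elovl2 26.4% and 27.2% in WT and 27.5% and 28.3% in KO, a difference of 1.05 points. In these 4 genes both KO libraries were above both WT libraries, which over all genes held for 24.9% of regions. The gap in Elovl2 and in Elovl5 was of the order of the spread between replicates (SD 0.558 and 0.582 for Elovl2, 0.852 and 0.249 for Elovl5). With 2 libraries against 2 the exact permutation test cannot go below p = 0.333, which is its value for these 4 genes and for Elovl3.

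Elovl3 was the one gene with both KO libraries below both WT libraries, at 14.9% and 15.4% in WT and 14.0% and 14.8% in KO. The difference of -0.749 points was +0.218 with levels weighted by reads and -4.09 with the gene body alone. Over all genes 13.8% of regions had KO below WT without overlap. Fads3 had 29.5% ± 0.905 in WT and 30.4% ± 0.931 in KO, Elovl1 33.2% ± 0.0146 and 33.2% ± 0.242, Elovl6 58.0% ± 1.14 and 58.3% ± 0.126, and Elovl7 37.0% ± 1.20 and 37.4% ± 0.221 (SD, n = 2). In these 4 genes the libraries of the genotypes overlapped. The median difference over the 9 genes was 0.89 points, against 0.176 over 26474 gene regions, and 8 of 9 were higher in KO, against 59.0% of all. With the reads of a region summed, Fads1 alone of the 9 had an unadjusted p under 0.05 (adjusted p = 0.995). The model called 0 of the 9 regions, as did limma on log2 ratios; over all genes 0.0% were called.

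**Figure D2:**
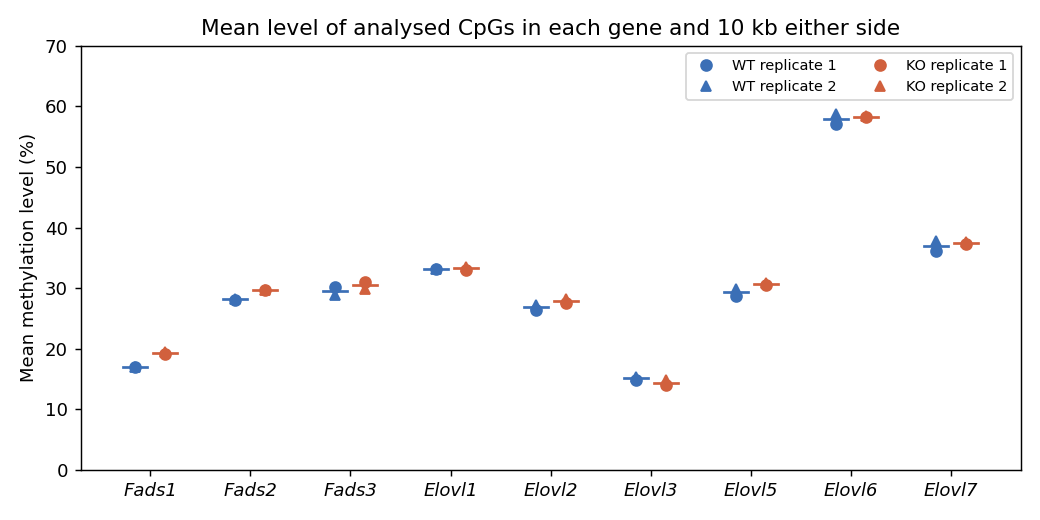
Mean methylation level (%) over the analysed CpGs of each gene and 10 kb either side; circles and triangles are replicates 1 and 2 (blue WT, orange KO) and bars the mean of 2 libraries. Fads1 stands at 17.0% in WT and 19.2% in KO, and Elovl6 is the highest at 58.0% and 58.3%.

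A short stretch inside Fads1 was more methylated in KO. Of 116 tiles of 1 kb that overlap the 9 gene regions and have at least 3 analysed CpGs, 1 was called, higher in KO. Over all 163610 tiles 0.149% were called, 0.108% higher and 0.0416% lower. The tile is chr19 10188001 to 10189000, inside the gene body, which runs from 10182877 to 10196874; whether it is exon or intron was not analysed here. Its level was 28.2% of 181 reads and 33.0% of 297 reads in WT replicates 1 and 2, and 55.1% of 254 and 56.5% of 260 in KO replicates 1 and 2. These reads are summed over the 5 CpGs of the tile, so a read across several CpGs is counted more than once. The exact Clopper-Pearson 95% intervals were 21.8% to 35.3% and 27.7% to 38.7% in WT. In KO they were 48.8% to 61.3% and 50.3% to 62.7%. They hold counting error only and are too narrow even for that, since reads were amplified and counted more than once. The libraries of each genotype lay close together and far from those of the other, with 30.6% ± 3.41 in WT and 55.8% ± 1.004 in KO (SD, n = 2). The difference of 25.2 points had an adjusted p of 0.000192 in the quasi-binomial model.

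The call stayed when any 1 library was left out (adjusted p from 0.00164 to 0.00432) and when any 1 of its 5 CpGs was left out (0.000401 to 0.00143). It was lost in a pair of settings that gave no call in any tile of the genome. With limma on log2 ratios the adjusted p was 0.894, and with the reads of each tile divided by its number of CpGs it was 1. In the second the difference of 25.2 points is the same, and reads that cover several CpGs are counted about once.

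The 5 CpGs of the tile lie within 53 bp, from 10188021 to 10188073, and with the pair just before them form a run of 7 CpGs over 103 bp, 5094 to 5196 bp from the CpG-richer end of Fads1. The pair was taken into the run only because both KO libraries were above both WT libraries there, so for it this order was set by the rule. At the 5 CpGs of the tile, itself called for its higher level in KO, both KO libraries were also above both WT libraries. At the first (10187971) levels were 63.0% and 69.7% in WT and 76.7% and 75.6% in KO, and at the second (10187987) 75.9% and 77.3% in WT and 90.0% and 87.8% in KO. At 10188021 they were 27.1% and 39.2% in WT and 58.4% and 52.5% in KO. From this CpG on, every library was below its own levels at the first 2. At 10188039 the levels were 38.5% and 38.3% in WT and 69.8% and 65.8% in KO. At 10188059 they were 26.9% and 25.5% in WT and 58.1% and 53.8% in KO. At 10188065 they were 30.8% and 27.7% in WT and 41.9% and 53.8% in KO. The last 2 CpGs showed the widest spread between the KO libraries, and at 10188073 levels were 21.2% and 27.8% in WT and 45.8% and 62.8% in KO. Differences ran from 9.81 to 29.8 points, and none of the 7 CpGs was called by itself (adjusted p from 0.174 to 0.731). The CpGs at 10188039, 10188059 and 10188065 had 26 reads each in WT replicate 1 and 47 each in WT replicate 2; neighbouring CpGs are covered by the same reads, so that they are not independent measurements.

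**Figure D3:**
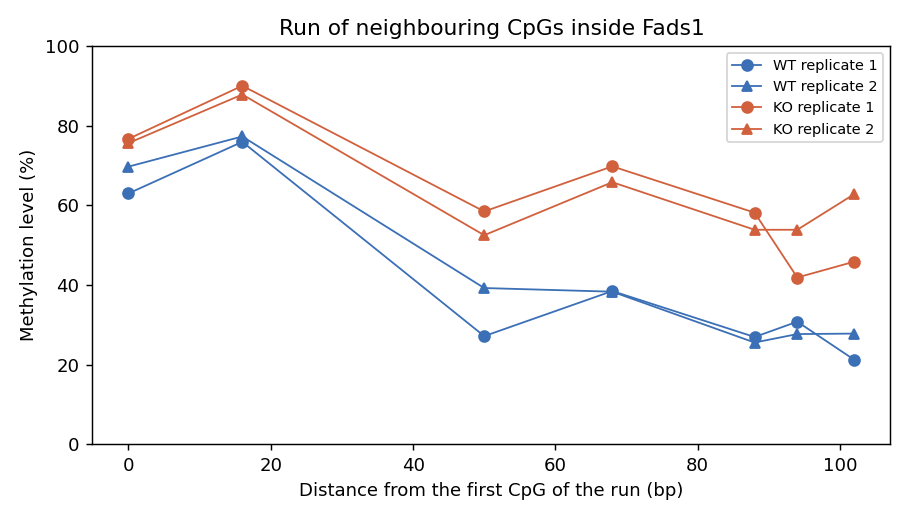
Methylation level (%) at the 7 neighbouring CpGs inside Fads1 against distance in bp from the first of them, 1 line per library (blue WT, orange KO; circles replicate 1, triangles replicate 2). The first 2 CpGs were taken into the run because both KO libraries were above both WT libraries there. Both KO lines lie above both WT lines at every CpG, from 9.81 points apart in the means at the first to 29.8 at the last.

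Other tiles of Fads1 were higher in KO by smaller amounts that did not pass the test. The tile from 10186001 had 28.8% and 22.4% in WT and 37.2% and 32.1% in KO (adjusted p = 0.724). The tile from 10184001, at the inner edge of the unmethylated stretch, had 3.48% and 5.53% in WT and 9.09% and 6.04% in KO (adjusted p = 0.652). In the tiles from 10190001 and 10197001 the means were 53.5% and 60.5% in WT and 59.1% and 66.2% in KO. In both tiles, each KO library was above both WT libraries. Of the 13 tiles of the Fads1 region, 6 had KO above WT without overlap and 2 had KO below, where 19.5% and 14.9% of all tiles were so. The methylated tiles on the lower-coordinate side were at 92.2%, 90.0% and 97.1% in WT and 88.7%, 89.3% and 96.9% in KO. The first of these, among the 2 with KO below, only overlaps the edge of the region. Its 3 analysed CpGs lie beyond the 10 kb. Without the CpGs of the called tile the difference of the Fads1 mean was 1.45 points instead of 2.28.

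Over all tiles of the 9 genes, 70 of 116 were higher in KO (60.3%, against 54.0% of all tiles). The median tile difference was 0.760 points, against 0.177 over all tiles. In 32 tiles both KO libraries were above both WT libraries, where 19.5% of all tiles were so, and in 14 both were below, where 14.9% were so. An unadjusted p under 0.05 was found in 16 of the 116 (13.8%, against 6.43% of all tiles). A difference of 10 points or more was found in 4 tiles, 3 higher and 1 lower in KO (3.45%, against 4.04% of all tiles). Of the tiles, 32 were below 20%, 50 above 80% and 34 between these.

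**Figure D4:**
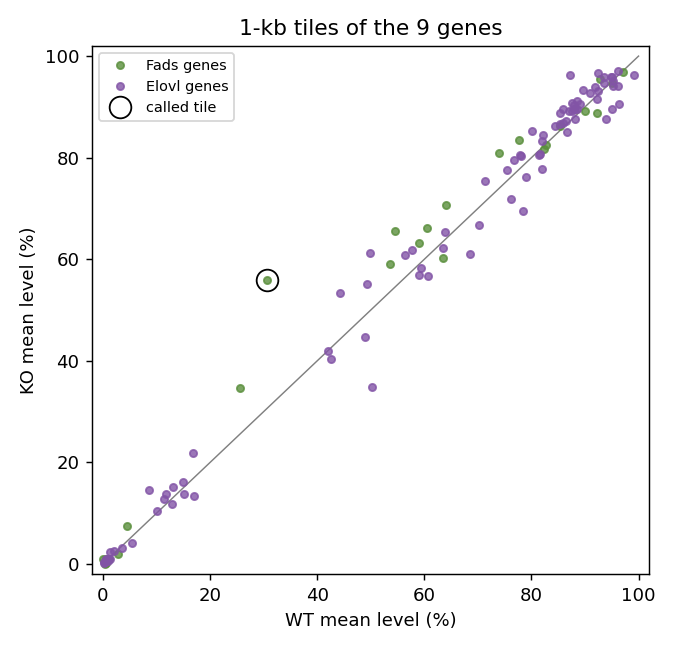
Mean level (%) of each 1-kb tile of the 9 gene regions in KO against WT (each the mean of 2 libraries; green for Fads genes, purple for Elovl genes, tiles shared by Fads2 and Fads3 drawn once; grey line, equal levels). The circled Fads1 tile at 30.6% and 55.8% is the called one, and the purple point farthest below the line is the Elovl6 tile at 50.3% and 34.9%.

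Fads2 and Fads3, the other desaturase genes, had no called tile. In Fads2 the tile with the smallest p (10097001 to 10098000, in the body) had 50% and 59.2% in WT and 70.1% and 60.9% in KO, with 138 to 184 reads a library. The lower KO library was within 2 points of the higher WT library, and the difference of 10.9 points gave an adjusted p of 0.684. In the tile that both regions hold (10056001 to 10057000, 9 CpGs), levels were 68.7% and 59.4% in WT and 71.9% and 69.5% in KO (adjusted p = 0.744). The CpG with the largest difference among those with at least 20 reads in every library was the same for Fads2 and Fads3, at 10056509, with 36.0% and 9.38% in WT and 52.2% and 41.2% in KO. The WT libraries were farther apart there than the genotype means (WT 22.7% ± 18.8, KO 46.7% ± 7.78, SD, n = 2; adjusted p = 0.731). For Fads3 the tile with the smallest p was the one at its start, at 2.86% ± 0.0350 in WT and 1.89% ± 0.940 in KO (adjusted p = 0.690).

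Among the elongases of polyunsaturated chains, Elovl5 had its smallest p in the tile from 77924001, 9 CpGs some 7 kb inside the gene, at 40.9% and 47.5% in WT and 50.2% and 56.5% in KO (difference 9.12 points, adjusted p = 0.616). Both KO libraries were above both WT libraries by a margin below the gap between the 2 WT libraries. A tile 37 kb inside, from 77954001, had 49.4% and 50.5% in WT and 61.9% and 60.7% in KO, with 3 CpGs and 83 to 122 reads (adjusted p = 0.767). The Elovl5 CpG of largest difference, 77939880, had 22.0% and 3.23% in WT and 38.2% and 31.8% in KO (adjusted p = 0.707). Elovl2 went the other way in its tile of smallest p, a highly methylated one near the far end of the gene (41185001 to 41186000), at 95.5% and 97.2% in WT and 87.9% and 93.3% in KO (adjusted p = 0.658). The Elovl2 CpG of largest difference lay at -398 bp from the start (41220801), with 7.14% and 6.25% in WT and 37.9% and 18.2% in KO on 28 to 33 reads (adjusted p = 0.633). It is the outermost CpG of the Elovl2 unmethylated run, and the KO libraries lay far apart from each other there.

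Elovl6, the palmitate elongase, held the largest fall of any tile of the 9 genes. The tile from 129558001, 26 kb inside the gene with 7 CpGs, had 43.1% and 57.6% in WT and 40.2% and 29.6% in KO, a difference of -15.4 points (adjusted p = 0.226). Both KO libraries were below both WT libraries, yet WT replicate 1 and KO replicate 1 were under 3 points apart, and the SD was 10.3 in WT and 7.496 in KO (n = 2). The Elovl6 CpG of largest difference, 129589927, rose instead, from 69.6% and 70.8% in WT to 93.5% and 92.1% in KO on 23 to 38 reads, with the libraries of each genotype within 2 points (adjusted p = 0.595). Of the 31 tiles of Elovl6, 7 had KO above WT without overlap and 4 below, near the 19.5% and 14.9% of all tiles.

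The remaining elongases had no called tile. The Elovl3 tile of smallest p (46134001 to 46135000, in the body) had 65.2% and 71.8% in WT and 57.6% and 64.4% in KO (adjusted p = 0.715), and the CpG of largest difference (46133856) 74.1% and 90.9% in WT and 61.9% and 56.5% in KO (adjusted p = 0.731). Both were lower in KO. In Elovl1 the tile of smallest p lay in the upstream flank, at 86.5% and 88.8% in WT and 90.5% and 91.1% in KO (adjusted p = 0.914). The Elovl1 CpG of largest difference, 118436706, had 44.2% in WT replicate 1 and 17.8%, 19.5% and 18.0% in the other libraries, so that 1 library made the difference. In Elovl7 the tile of smallest p had 84.7% and 87.1% in WT and 90.8% and 88.5% in KO (adjusted p = 0.926). The Elovl7 CpG of largest difference, 108215450, had 3.70% and 10.7% in WT and 0 of 26 and 0 of 25 reads in KO, which allow up to 11.5% and 12% (adjusted p = 0.731).

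The differences were larger at CpGs of intermediate level, 20% to 80% in the mean of the 4 libraries, than at the others. At the 160 such CpGs of the 9 genes the mean was 51.7% and 54.3% in WT and 54.8% and 56.4% in KO, a difference of 2.59 points, against 1.303 points at the 297369 such CpGs of the genome. Without the called tile it was 1.84 points at 155 CpGs. At the 716 CpGs below 20% it was 0.289 points, against -0.0133 at all such CpGs of the genome. At the 331 above 80% it was 0.837 points, against 0.276 at all such CpGs. In each of the 3 classes both KO libraries were above both WT libraries, and the lower KO library exceeded the higher WT library by less than the gap between the WT libraries. The intermediate CpGs of the whole genome had this order too, at 58.3% and 57.7% in WT and 59.3% and 59.3% in KO. In the other classes the genome's libraries overlapped.

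Fads1 had 13 intermediate CpGs, at 40.8% and 42.3% in WT and 57.1% and 57.1% in KO, and 12 of the 13 were higher in KO. The 8 of them outside the called tile went from 48.6% ± 0.552 in WT to 57.6% ± 1.39 in KO (SD, n = 2), 7 of 8 higher. In Fads2 22 CpGs had 55.9% and 56.5% in WT and 65.2% and 63.8% in KO, 17 of 22 higher, and in Fads3 14 CpGs had 63.8% and 55.9% in WT and 67.4% and 66.9% in KO. Fads2 and Fads3 share some of these CpGs. Of all intermediate CpGs of the genome 54.2% were higher in KO. Among the elongases, Elovl5 (35 CpGs) had 48.3% and 54.0% in WT and 53.6% and 58.4% in KO, which overlapped. Elovl2 (8 CpGs) had 40.9% and 38.3% in WT and 44.2% and 41.5% in KO, both KO libraries above both WT libraries as in the 3 desaturase genes, and Elovl3 (19 CpGs) 60.9% and 65.7% in WT and 58.0% and 59.9% in KO. In Elovl1, Elovl6 and Elovl7 the differences were 0.261, -2.29 and -0.623 points, with overlap in each. How many of all genes have both KO libraries above both WT libraries at intermediate CpGs was not computed here. For the means of whole gene regions it was 24.9%.

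**Figure D5:**
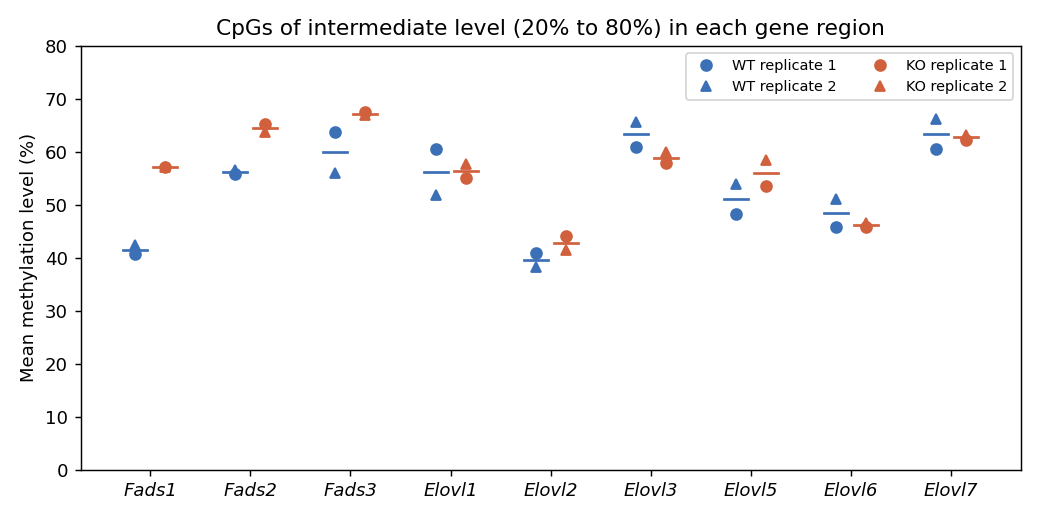
Mean methylation level (%) over the CpGs of intermediate level (20% to 80% in the mean of 4 libraries) in each gene region; circles and triangles are replicates 1 and 2 (blue WT, orange KO), bars the mean of 2 libraries. Fads1 has the widest gap, 41.6% in WT and 57.1% in KO, while in Elovl1 and Elovl6 the libraries overlap.

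No single CpG of the 9 genes was called. Of 900 tested, 60 had an unadjusted p under 0.05 (6.67%, against 5.55% of all CpGs), and limma on log2 ratios called 0; over the genome 0.0403% were called. In 148 both KO libraries were above both WT libraries, where 14.6% of all CpGs were so, and in 100 both were below, where 12.7% were so. At intermediate CpGs the median distance between genotype means was 17.4 points in Fads1, against 6.73 points between the WT libraries and 5.97 between the KO libraries. In Elovl7 the order was the reverse, with 4.92 points between genotypes and 20.1 between the WT libraries. In Fads2 the values were 10.2 points between genotypes and 11.6 and 8.04 within WT and KO.

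Other genes of fatty acid synthesis, activation and its control were read the same way, from a list of 31 of which 30 were found. Of their 313 tiles, 2 were called higher in KO and 0 lower, or 0.639%, against the 0.149% of all tiles. The list was chosen with earlier results of these data known, so these shares describe it and do not test it. The Srebf1 region, a transcription factor gene that drives lipid synthesis, held a tile in its downstream flank at 45.7% and 38.6% in WT and 77.7% and 65.5% in KO (adjusted p = 0.000182), and Ppara, a nuclear receptor gene for fatty acid use, one at 29.3% and 28.3% in WT and 53.9% and 49.7% in KO (adjusted p = 0.0277). The Ppara call was lost with any 1 library left out (adjusted p from 0.0560 to 0.443). Next by p came Mlxipl, the gene of the carbohydrate response factor ChREBP, at 51.5% and 53.2% in WT and 64.7% and 64.9% in KO (adjusted p = 0.0836), Degs1, the dihydroceramide desaturase gene, at 25.0% and 28.0% in WT and 40.5% and 36.5% in KO (0.232), and Fasn, the fatty acid synthase gene, at 79.1% and 83.1% in WT and 90.3% and 90.6% in KO (0.310). Another Srebf1 tile, in the upstream flank, was lower in KO, with 35.8% and 52.1% in WT and 36.7% and 32.7% in KO, which overlapped (adjusted p = 0.413). Of 2450 CpGs of the list, 4 were called higher, 2 each at Srebf1 and Ppara, and 1 lower, in the malic enzyme gene Me1, where WT had 100% and 100% and KO 97.3% and 57.1%, so that the fall rests on KO replicate 2. Over the genome 0.0403% of CpGs were called. Of 27 region means 20 were higher in KO and the median was 0.467 points, and 0 of 25 windows were called, with 0.076% of all windows called. Scd1, the main hepatic stearoyl-CoA desaturase gene, had a start window at 0.613% in WT and 0.606% in KO and no called tile among 13.

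The gene regions most like Fads1 in their 4 library means, by Euclidean distance among 4384 candidate regions with at least as many analysed CpGs, were those of Foxa3, Gm36748 and Gm41565. Foxa3, a forkhead factor gene of endoderm, had 17.1% and 17.7% in WT and 19.8% and 18.8% in KO, at a distance of 1.21 points. The distances of the others were 1.27 and 1.41 points.

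The labelled tissue was looked at through the windows of cell type markers, which show methylation and not expression. Of 9 hepatocyte markers 4 were measured. Apoa2 had 4.69% and 2.36% in WT and 5.53% and 3.84% in KO, and Hnf4a 11.96% and 11.6% in WT and 7.22% and 11.4% in KO. Serpina1a was the hepatocyte marker not below 20%, with 68.8% and 59.0% in WT and 76% and 75% in KO, both KO libraries above both WT libraries. Of 7 leukocyte and Kupffer cell markers 3 were measured, Cd3e, Csf1r and Adgre1, and all had windows between 70% and 87.9% in each library. Their median was 86.5% and 79.7% in WT and 82.6% and 82.9% in KO, which overlapped. Of the 4 cholangiocyte markers 3 were below 20%, as were the 4 stellate cell markers and the 1 endothelial marker measured, Kdr. Cholangiocyte windows had medians of 15.5% and 16.8% in WT and 16.4% and 10.02% in KO. Both KO libraries were below both WT libraries for Epcam (23.5% and 21.4% in WT, 20.2% and 10% in KO), for Sox9 (1.31% and 1.14% in WT, 0.546% and 0.891% in KO), for Kdr (2.63% and 3.39% in WT, 2.40% and 1.51% in KO), for Csf1r (87.5% and 84.7% in WT, 80.7% and 82.9% in KO) and for Hnf4a; over all gene windows 16.8% were so. The part of the cell mix in the Fads1 difference was not tested.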

How the data were processed

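The authors deposited, for each library, 2 files of scores made with GBSA on mm10 per the file headers: the score is the methylated fraction of a cytosine or its number of reads, given a minus sign on the reverse strand. BWA 0.7.12 and MACS are also named in the submitters' processing notes, which give no role for them. Methylated reads were recovered as level times depth, a whole number (tolerance 1e-06) at 100% of positions, and the strands of a CpG were summed.

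CpGs with 10 or more reads in every library, 1-kb tiles and start windows (3 or more such CpGs) and gene regions (10 or more) were tested genome-wide with a quasi-binomial model. Its dispersion was shrunk with limma 3.58.1 (R 4.3.3) and not let below 1, and two-sided F tests were adjusted by Benjamini-Hochberg over all features. A call needed adjusted p under 0.05 and 10 points. Region means are unweighted over CpGs. The p-values set a difference against counting error in the reads, scaled by the dispersion. The dispersion came mostly from all features together, and for single CpGs wholly so (1.09 for each). The spread between the libraries of a feature thus had less weight, and that spread may be technical. Tables and figures used pandas 2.3.3, scipy 1.17.1 and matplotlib 3.10.9.

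Members and gene lists were chosen with earlier results of these data known. Named were, per gene, the tile of smallest p and the CpG of largest difference with 20 or more reads in every library; of other pathway genes those with a call, then up to 4 by tile p; and the 3 regions nearest to Fads1. Alternatives covered depth and CpG minimums, tile position, weighting, other tests and priors, the replicate block and each library left out. Dividing reads by the CpGs of a tile, leaving out each CpG of the called tile and leaving that tile out of the means were added after seeing the data. Faxdc2 of the pathway list was not analysed here. The values of 1 measured marker are not reported here.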

Additional observations from a re-analysis of the deposited data

How the results depend on the processing

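The 9 genes had 1 called tile under 12 of 14 alternatives. Of these 12, dropping the minimum difference and using the gene body alone could not lose the call, since both reuse the same fit. The others included 5 and 20 reads in every library, 5 CpGs a tile, tiles shifted by 500 bp and another prior. With that prior the Fads1 tile had an adjusted p of 0.00283 in the quasi-binomial model. The count of called tiles in the 9 genes was 0 with limma on log2 ratios and 0 with reads divided by the CpGs of a tile, against 1 otherwise; over the genome these settings called 0 tiles each, against 244. With each library left out the count ranged from 1 to 1, and the genome-wide count from 143 to 267; it was 129 with the other prior and 409 with the replicate block. No single CpG, window or region of the 9 genes was called under any alternative run. The replicate numbers did not pair the libraries: the correlation of deviations of same-numbered libraries was -0.00844 over tiles, so the replicate block is given here alone, with 1 called tile (adjusted p = 3.06e-07) and a median difference of 0.89 points. The median difference of the 9 region means stayed between 0.560 and 1.26 points over its alternatives, and from 0.560 to 1.26 when each library was left out. The sign of a region difference changed for Elovl1 in 5 of 11 alternatives (down to -1.44 with the gene body alone), for Elovl3 with levels weighted by reads (0.218), and without WT replicate 1 for Elovl6 (-0.523) and Elovl7 (-0.448); the cause was not tested. Fads1, Fads2, Fads3, Elovl2 and Elovl5 stayed higher in KO in all 11, Fads1 by 1.45 to 2.94 points. Single CpGs had median depths of 21 or 25 reads; with at least 20 reads in every library 0 CpGs of the 9 genes were called and 387 over the genome.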
